A study of Bos taurus with 20 samples.

Results

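The KLHL, KBTBD, FBXO, FBXL, FBXW, ASB and TRIM genes encode the parts of ubiquitin ligases that choose which protein is marked, and they were followed here through the development of bovine muscle. Members were all genes whose platform symbol is one of these 7 prefixes followed by a number, and a gene with several array rows was described by the row with the highest mean. This gave 115 members of the 11329 named genes on the array: 35 TRIM, 24 KLHL, 17 FBXO, 16 ASB, 13 FBXL, 6 KBTBD and 4 FBXW genes. Longissimus dorsi (LD), the long muscle of the back, was sampled at 60, 135, 195 and 280 days of gestation and at 3, 7, 12, 20, 25 and 30 months after birth. The animals were Piedmontese by Hereford or Wagyu by Hereford crosses. Piedmontese cattle are known for an inactive myostatin and heavy muscling, and Wagyu cattle for fat within the muscle. Each cross and age has 1 deposited column, which stands for 3 animals before birth and 4 after it, so no column has a replicate and an age has 2 samples, the 2 crosses. The 36 two-colour arrays limit the precision, and a p-value measures the spread between the crosses around a shared age course. Each array held both crosses of 1 age, so the 2 columns of an age come from the same arrays. Anything those arrays share is not part of that spread, while the fit treats the 2 columns as independent.

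KLHL and KBTBD proteins carry a BTB and a Kelch domain and bring substrates to the cullin CUL3. F-box proteins (FBXO, FBXL and FBXW) do the same for CUL1 through SKP1, and ASB proteins, with ankyrin repeats and a SOCS box, for CUL5 through elongins B and C. Most TRIM proteins carry a RING domain of their own. In striated muscle such ligases control the turnover of sarcomere proteins, and loss of several of them in humans causes nemaline myopathy or limb-girdle dystrophy.

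The samples were bulk tissue, in which fewer cells of a type and less RNA per cell cannot be told apart. The 9 listed muscle fibre markers (such as CKM and ACTN3) averaged 19.01 in the Piedmontese and 19.40 in the Wagyu column at 280 days, against 12.49 and 13.68 at 60 days, and lay between 19.50 and 20.29 in the postnatal columns. At 60 days the 3 cartilage markers averaged 15.08 in the Piedmontese and 14.59 in the Wagyu column, above the fibre markers. The fibre marker CKMT2 held only 5.12 and 5.95 there. Thus muscle was not the only tissue marked at 60 days, the baseline of each change before birth. Before birth 7 of the 9 fibre markers rose. Over the same interval all 5 markers of dividing cells fell, with list means of 3.40 and 2.98 at 280 days and 10.63 and 10.81 at 60 days, and all 3 cartilage markers fell too. Surface epithelium markers averaged 4.78 and 4.96 at 280 days against 9.92 and 10.23 at 60 days, with 3 of 4 lower (KRT15 by −11.54, KRT5 by −9.59) and TP63 higher. Erythroid markers averaged 6.65 and 6.63 against 11.87 and 12.04, with 3 of 4 lower (HBA by −8.54), and all 4 macrophage markers fell, 2 of them under each scaling. The part of these markers in the changes of the ligase genes was not tested. The Piedmontese column at 135 days stood apart, with a fibre marker mean of 13.21 against 15.20 in the Wagyu column. Both columns of 135 days were left out in an alternative, which gave 35 members higher and 44 lower before birth where the full fit gave 34 and 43.

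Values are logarithms as deposited and are called log2 here, although the sources do not state the base. Differences are in the same deposited units. A member was called when its adjusted p from limma, with Benjamini-Hochberg adjustment over all 21475 rows of the array, was under 0.05. Age as a whole changed 103 of the 115 members, and 87.4% of all rows. Before birth, at 280 against 60 days, 34 members rose and 43 fell, while 61.0% of all rows were called, 18.6% higher and 42.4% lower. The median member changed by −0.28 and the median row by −0.34. The zero point depended on scaling: the median row changed by 0.15 after quantile normalisation, which gave 58 members higher and 27 lower, and by 0.89 after centring each column on its median, which gave 79 and 17. All 34 members that rose also rose under both of these scalings. Of the 43 that fell, 16 fell under both, each of them by 2.03 or more in the deposited values.

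**Figure D1:**
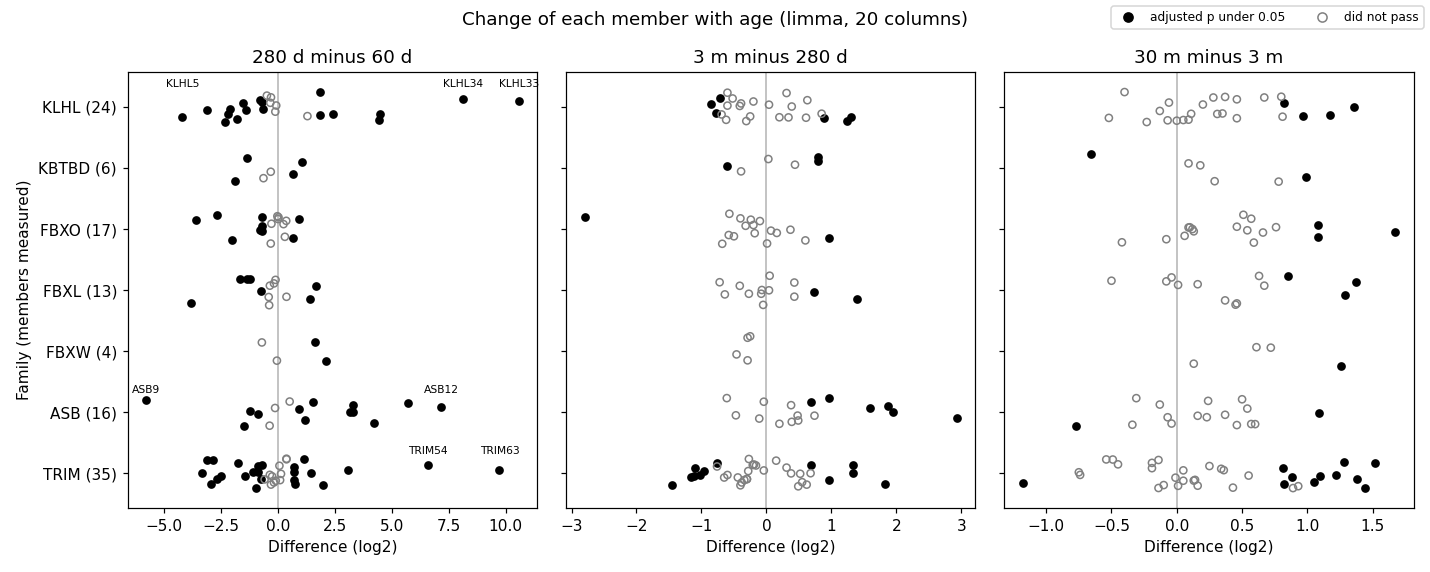
Each point is a member, placed by its difference (log2) between 2 ages, with families down the page. Filled points passed at an adjusted p under 0.05 and open points did not. The left panel holds the widest range, from −5.77 for ASB9 to 10.57 for KLHL33.

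By family, 9 ASB genes rose before birth and 4 fell, of 16 measured (56.2% and 25.0%), beside 18.6% and 42.4% of all rows. The median change of the ASB genes was 1.05. Of the KLHL genes 7 rose and 11 fell (29.2% and 45.8%), and of the TRIM genes 10 rose and 14 fell (28.6% and 40.0%). Of the FBXO genes 2 rose and 7 fell (11.8% and 41.2%), and of the FBXL genes 2 rose and 5 fell (15.4% and 38.5%). In the KLHL, TRIM, FBXO and FBXL genes the share that fell was near that of all rows. KBTBD genes had 2 calls in each direction, and FBXW genes 2 higher and 0 lower. The family counts are on the deposited scale, and the members that fell by less than the 16 above lost that call or changed sign under another scaling.

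Of the 6 muscle Kelch genes measured, 5 rose before birth, beside 18.6% of all rows. They rose at different steps, and the median change of the 6 was 4.46. KLHL33, a little studied Kelch gene, had the largest change of all members. From 60 days of gestation to 30 months its Piedmontese columns held 3.26, 5.28, 13.46, 13.78, 15.36, 15.76, 16.02, 15.5, 15.49 and 15.17. Its Wagyu columns held 3.23, 5.82, 13.19, 13.85, 14.87, 15.44, 16.82, 15.37, 15.69 and 15.75. Both crosses were low at 60 and 135 days and high at each later age, with no overlap. The change before birth was 10.57 ± 0.28 (SE, adjusted p = 3.15e-14), and 7.78 ± 0.28 of it fell between 135 and 195 days (adjusted p = 5.39e-11).

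KLHL34, also little studied, rose later. Its Piedmontese columns held 3.27, 4.06, 6.87, 10.9, 11.56, 10.97, 10.54, 11.45, 12.04 and 12.1 in order of age, and its Wagyu columns 3.61, 4.31, 6.94, 12.27, 12.01, 10.89, 11.09, 12.33, 12.12 and 12.38. The rise from 60 to 280 days was 8.14 ± 0.28 (adjusted p = 3.64e-13), of which 4.68 ± 0.28 came between 195 and 280 days and 2.72 ± 0.28 between 135 and 195 days. All columns of 280 days and later lay above all earlier ones.

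KLHL40, which stabilises thin filament proteins and is mutated in nemaline myopathy, peaked at 280 days, with 19.05 in the Piedmontese and 18.86 in the Wagyu column against 13.87 and 15.06 at 60 days, a rise of 4.49 ± 0.37 (adjusted p = 1.09e-08). It was then lower at 7 months, with 16.71 and 16.44, than at 3 months, with 18.12 and 18.4 (−1.68 ± 0.37, adjusted p = 0.0336). At 30 months it was higher again, with 17.44 and 18.04, than at 25 months, with 16.13 and 16.34 (1.5 ± 0.37, adjusted p = 0.037). In both crosses the columns of 7 to 25 months therefore lay below those of 3 and 30 months, as the plot of muscle members by age shows. The low stretch was not even in the Wagyu columns, which held 16.52, 17.35 and 16.34 at 12, 20 and 25 months. KLHL38, reported mainly from muscle, held 9.43 and 9.35 at 280 days against 4.63 and 5.3 at 60 days (4.42 ± 0.46, adjusted p = 1.87e-07). Its other array row changed by 4.08 and correlated with it at 1.0 over the 20 columns.

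KLHL41, another nemaline myopathy gene, was the muscle Kelch member that did not pass. Its Piedmontese columns before birth held 17.31, 14.92, 18.94 and 18.62 and its Wagyu columns 18.1, 18.69, 18.57 and 19.4. All postnatal columns lay between 18.56 and 19.0. A single column, the Piedmontese at 135 days, lay far below the others, and the change from 60 to 280 days was 1.3 ± 0.66 (adjusted p = 0.0986). KBTBD13, mutated in a further form of nemaline myopathy, held 7.45 and 7.48 at 280 days against 6.72 and 6.9 at 60 days. Its rise of 0.66 ± 0.21 (adjusted p = 0.0115) was the smallest of the group, and the call was lost without the Piedmontese column of 60 days (adjusted p = 0.097).

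**Figure D2:**
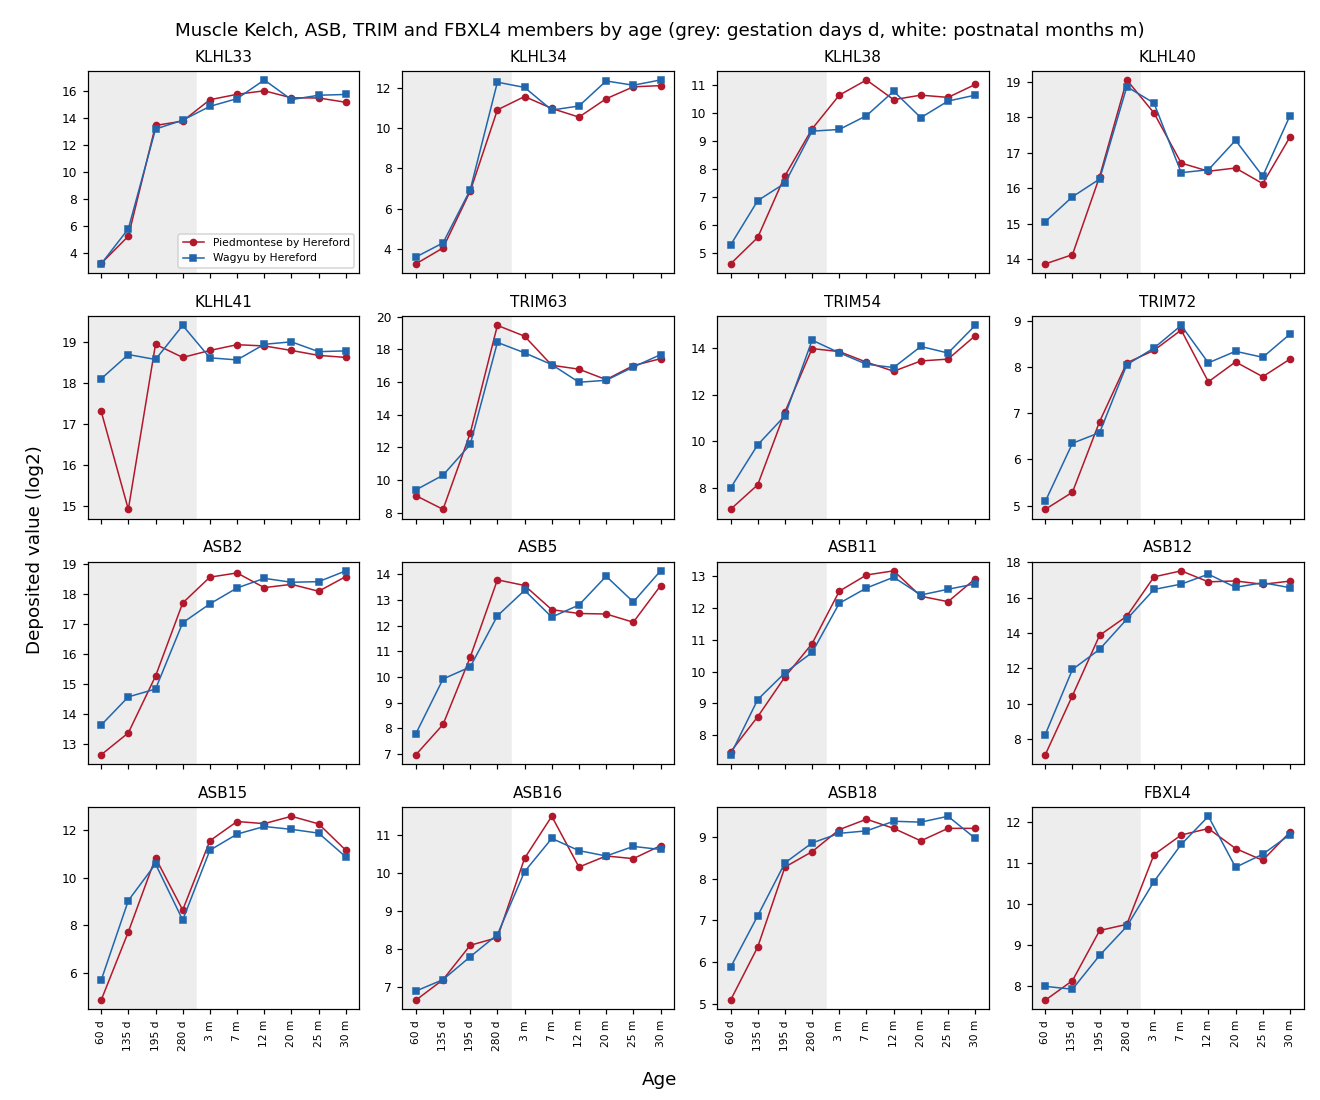
Deposited values (log2) of 16 members by age, with Piedmontese by Hereford as red circles and Wagyu by Hereford as blue squares. Grey marks gestation. Each point is 1 column, and each panel has its own scale. KLHL33 climbs between 135 and 195 days, TRIM63 and KLHL34 up to 280 days, and ASB15 dips at 280 days in both crosses.

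Among the ligases of muscle wasting and of the sarcomere, 3 of the 5 measured rose before birth and 2 fell, beside 18.6% and 42.4% of all rows. FBXO32, FBXO40 and TRIM55, which belong to the same list, were not analysed here. TRIM63 (MuRF1), which marks thick filament proteins for breakdown in wasting muscle, held 9.05, 8.21, 12.87, 19.47, 18.81, 17.03, 16.79, 16.15, 17.01 and 17.43 in the Piedmontese columns by age and 9.4, 10.3, 12.18, 18.43, 17.79, 17.07, 15.99, 16.11, 16.92 and 17.68 in the Wagyu columns. It was highest at 280 days in both crosses. The rise before birth was 9.73 ± 0.51 (adjusted p = 3.89e-11), with 6.43 ± 0.51 between 195 and 280 days (adjusted p = 1.99e-08).

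TRIM54 (MuRF3), a partner of TRIM63 that binds microtubules, held 13.97 and 14.33 at 280 days against 7.1 and 8.01 at 60 days, a rise of 6.6 ± 0.34 (adjusted p = 3.15e-11). Its other array row gave 7.01. TRIM72 (MG53), which takes part in resealing the muscle cell membrane, held 8.09 and 8.05 against 4.92 and 5.09, a rise of 3.07 ± 0.26 (adjusted p = 1.44e-08). For both genes the columns of the 2 ages were far apart in each cross.

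TRIM32, whose loss causes a limb-girdle dystrophy, ran the other way. Its Piedmontese columns before birth held 12.33, 11.55, 10.25 and 8.19 and its Wagyu columns 11.98, 10.93, 10.62 and 9.47. This fall (−3.32 ± 0.33, adjusted p = 1.19e-07) was followed by a rise at birth, to 10.76 and 10.54 at 3 months (1.82 ± 0.33, adjusted p = 0.000788). FBXL22, described as a cardiac Z-disc F-box protein, held 4.75 and 5.15 at 280 days against 5.75 and 6.82 at 60 days (−1.34 ± 0.28, adjusted p = 0.000414). This last fall was not called under all 3 scalings.

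Of the 10 striated muscle ASB genes measured, 9 rose before birth, with a median change of 3.22, beside 18.6% of all rows. All 10 were higher over the postnatal than over the fetal ages, beside 22.2% of all rows. ASB12 held 7.12, 10.46, 13.87, 14.95, 17.17, 17.51, 16.89, 16.94, 16.75 and 16.93 in the Piedmontese columns and 8.26, 11.94, 13.08, 14.78, 16.46, 16.76, 17.32, 16.58, 16.84 and 16.56 in the Wagyu columns. It climbed at each fetal step, and by 7.17 ± 0.45 in all before birth (adjusted p = 3.49e-10). ASB5 held 13.78 and 12.38 at 280 days against 6.97 and 7.79 at 60 days (5.7 ± 0.52, adjusted p = 4.24e-08). ASB2, which sends filamins to the proteasome during muscle differentiation, held 17.69 and 17.03 against 12.63 and 13.62 (4.24 ± 0.4, adjusted p = 5.92e-08). The smaller rises were 3.32 for ASB11, 3.28 for ASB18, 1.56 for ASB16, 1.2 for ASB10 and 0.91 for ASB8. ASB4, known from blood vessels, changed by 0.52 and did not pass (adjusted p = 0.0988), while its other array row, at 0.85, did (adjusted p = 0.013).

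ASB15 was not monotonic. Its Piedmontese columns held 4.84, 7.72, 10.84 and 8.64 before birth and its Wagyu columns 5.68, 9.04, 10.58 and 8.22. It rose by 3.12 ± 0.37 from 60 to 135 days and by 2.33 ± 0.37 to 195 days, and then fell by 2.28 ± 0.37 to 280 days (adjusted p = 6.77e-05). At 3 months it stood at 11.56 and 11.16, the largest birth rise of any member (2.93 ± 0.37, adjusted p = 3.56e-05). The dip at 280 days was present in both crosses.

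The 16 falls before birth that held under each scaling were led by an ASB gene. ASB9, which in human cells binds creatine kinase B and leads it to breakdown, held 12.09, 10.77, 9.44 and 6.03 in the Piedmontese and 11.96, 10.33, 9.68 and 6.47 in the Wagyu columns at 60, 135, 195 and 280 days. It fell at each step, with a change of −5.77 ± 0.24 in all (adjusted p = 2.61e-12), and its postnatal columns lay between 5.93 and 6.86. KLHL5, a Kelch protein of the actin-binding kind, held 6.5 and 7.07 at 280 days against 11.12 and 10.83 at 60 days (−4.19 ± 0.23, adjusted p = 6.12e-11), and most of this came after 195 days (−3.33 ± 0.23). It then rose at birth, to 8.02 in both crosses at 3 months (1.24 ± 0.23, adjusted p = 0.000864).

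F-box genes among these falls were FBXL2, FBXO4, FBXO2 and FBXO15. FBXL2 held 6.97 and 7.3 at 280 days against 11.06 and 10.81 at 60 days (−3.8 ± 0.25, adjusted p = 6.26e-10). FBXO4, known for cyclin D1 turnover, held 6.49 and 7.38 against 10.55 and 10.48 (−3.58 ± 0.26, adjusted p = 2.39e-09). FBXO2, which recognises glycoproteins and is best known from brain (−2.69), and FBXO15, known from embryonic stem cells (−2.03), also fell. In these genes the 60 and 280 day columns did not overlap. The remaining falls of this kind were KLHL32 (−3.09), KLHL2 (−2.34), KLHL28 (−2.19) and KLHL11 (−2.1) and the TRIM genes TRIM36 (−3.13), TRIM2 (−2.94), TRIM5 (−2.85), TRIM44 (−2.67), TRIM71 (−2.49) and TRIM32.

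TRIM71 (LIN41), a regulator of early embryonic cells, fell early. It held 4.16 and 4.1 at 135 days against 6.45 and 6.08 at 60 days (−2.13 ± 0.23, adjusted p = 5.78e-06), and lay between 3.03 and 4.72 at all later ages. TRIM36, which has been tied to the cell cycle, held 8.17 and 7.54 at 280 days against 11.16 and 10.74 at 195 days (−3.09 ± 0.34, adjusted p = 9.31e-07). These 2 genes therefore fell in different intervals of gestation.

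**Figure D3:**
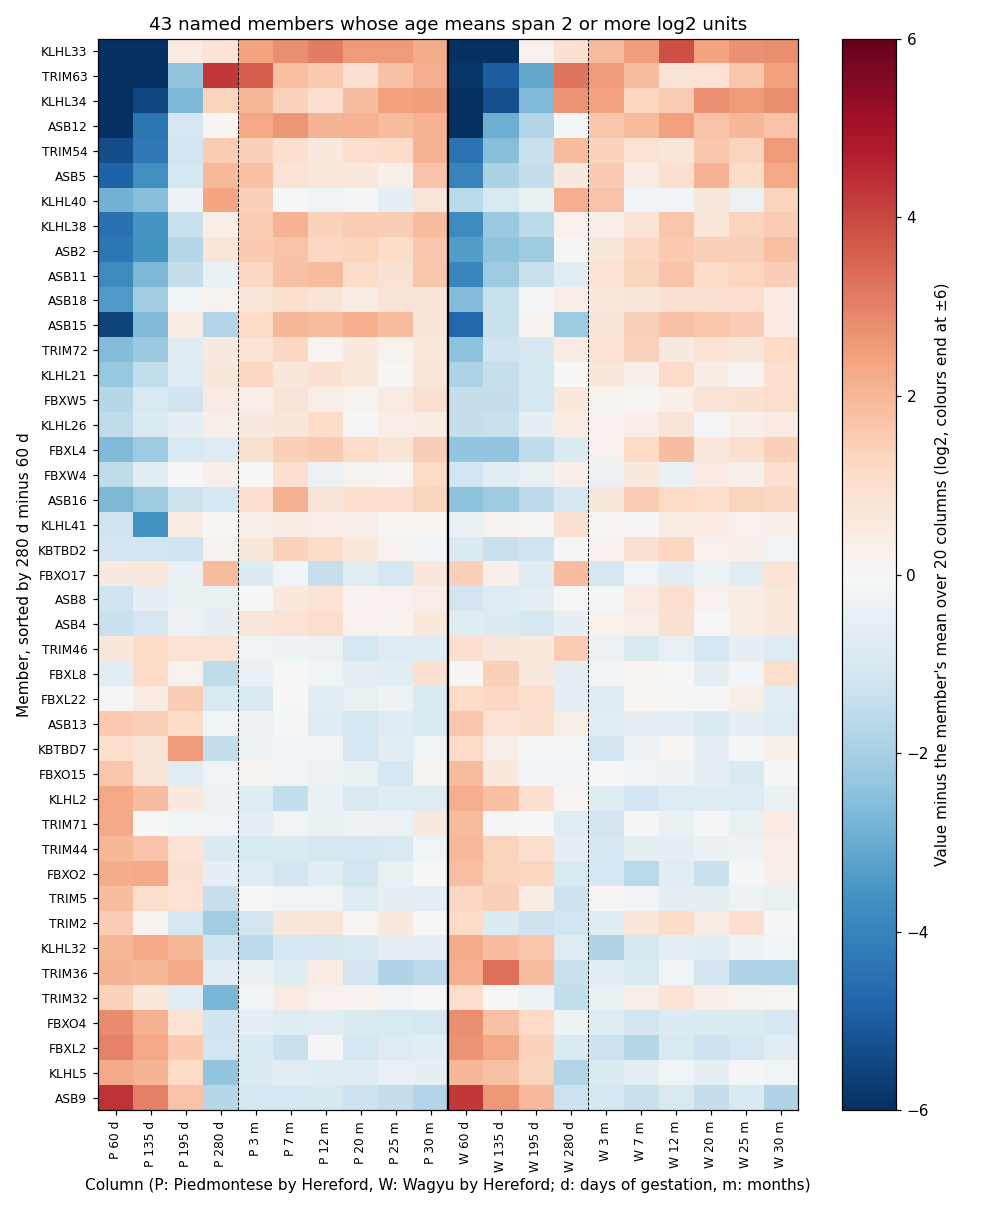
Value of each of 43 members minus its own mean over the 20 columns (log2, colours end at ±6), for members whose age means span 2 or more log2 units. Columns run by age within each cross, with a broken line at birth, and rows run from KLHL33, with the largest rise before birth, to ASB9, with the largest fall.

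Of 6 members listed for cell division, 4 fell before birth (TRIM36, TRIM59, FBXL5 and KLHL22) and 1 rose, beside 42.4% and 18.6% of all rows. FBXL5 also stood on a list of circadian and metabolic F-box genes and is better placed there. The falls of TRIM59, FBXL5 and KLHL22 were not called under all 3 scalings. KLHL22 was higher by 0.57 after centring and lost its call without the Wagyu column of 60 days (adjusted p = 0.0614). KLHL21, which acts with CUL3 on Aurora B in dividing cells, was the one that rose, with 17.05 and 16.38 at 280 days against 14.08 and 14.51 at 60 days (2.42 ± 0.26, adjusted p = 3.08e-07). It ran against the 5 markers of dividing cells, all of which fell. Of 6 neural members, 4 fell (TRIM2, TRIM3, FBXO2 and KLHL32), beside 42.4% of all rows called lower. TRIM3 was higher under both other scalings. TRIM46, a microtubule protein of the axon, and FBXO41 did not pass. Of the 3 nerve and Schwann cell markers, the neuronal STMN2 fell over the same interval, with 4.02 in both columns at 280 days against 11.94 and 8.03 at 60 days, while PMP22 (1.1) and S100B (0.93) rose. Their part in the neural members' changes was not tested. FBXW5 rose by 2.12 and FBXW4 by 1.63, the only FBXW calls. FBXL4, a mitochondrial F-box protein whose loss depletes mitochondrial DNA in humans, rose by 1.67 ± 0.25 (adjusted p = 1.9e-05).

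The genes whose course was most like that of KLHL33 over the 20 columns, by Pearson's correlation, were ACTN3 (0.99), TMOD4 (0.986), HHATL (0.984), MYH1 (0.983) and the member ASB18 (0.978). The nearest members after ASB18 were ASB12 (0.963), KLHL38 (0.942), ASB11 (0.935) and TRIM54 (0.929). At the other end stood KLHL2 and FBXO4 (both −0.939) and ASB9 (−0.918). The columns are the same for all genes and share the step before birth, so these values describe likeness of course only.

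Between neighbouring fetal ages, the first step (135 against 60 days) had 15 members higher and 12 lower, beside 19.5% of rows called (7.56% higher and 12.0% lower). The second (195 against 135 days) had 17 higher and 7 lower, beside 15.0% of rows (5.47% and 9.48%). The third (280 against 195 days) had 17 higher and 41 lower, beside 47.8% of rows (14.2% and 33.6%). The third step held most of the falls on the deposited scale, but its 35.7% of members lower was near the 33.6% of all rows. Its split was 38 higher and 30 lower after quantile normalisation and 59 and 24 after centring. The first step became 27 higher and 13 lower after quantile normalisation, and the second 32 and 5.

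The first fetal step was led by ASB12 (3.51), ASB15 (3.12) and TRIM47 (2.48 ± 0.21, adjusted p = 5.33e-07). TRIM47 held 5.66, 8.03, 8.76 and 6.39 in the Piedmontese and 5.59, 8.18, 8.82 and 6.4 in the Wagyu columns before birth. It was high in both crosses at 135 and 195 days alone among the fetal ages, and fell by 2.39 ± 0.21 to 280 days (adjusted p = 5.5e-08). The 4 endothelium markers averaged 10.72, 11.95, 12.35 and 10.00 in the Piedmontese and 10.88, 11.60, 12.15 and 10.61 in the Wagyu columns at the same ages. Of these markers 3 rose in the first fetal step and 3 fell in the third, and their part in the course of TRIM47 was not tested. FBXL8 had its highest fetal value at 135 days as well, with 12.32 and 12.55 against 10.45 and 11.17 at 60 days (1.62 ± 0.24, adjusted p = 0.000126). In this step 4 of 5 adipocyte markers rose, and 4 fell in the next, with list means of 3.42, 9.85 and 4.97 in the Piedmontese and 3.94, 8.72 and 6.32 in the Wagyu columns at 60, 135 and 195 days. Their part in the course of FBXL8 was not tested. FBXO17 fell in the second fetal step (−1.02) and rose in the third, with 9.76 and 9.72 at 280 days against 7.48 and 7.13 at 195 days (2.44 ± 0.28, adjusted p = 1.31e-06).

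**Figure D4:**
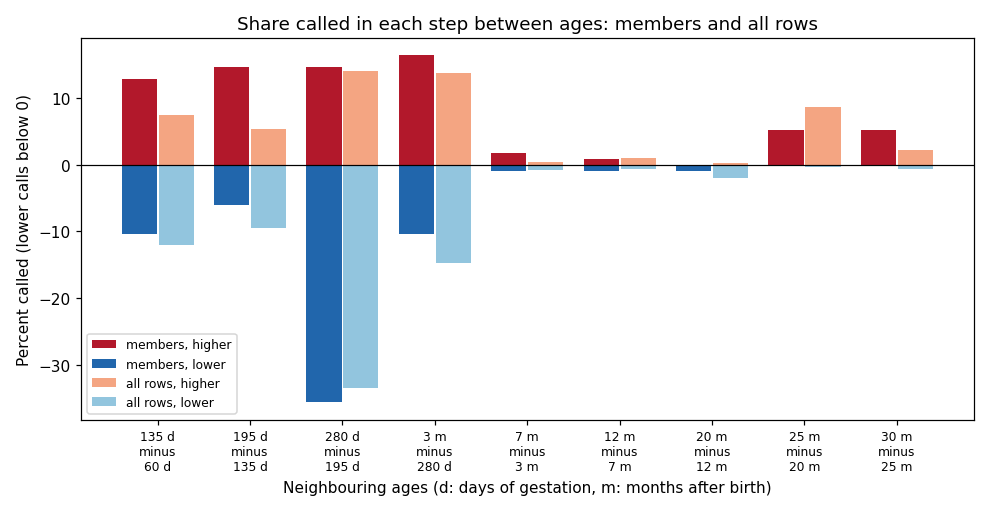
Percent called in each step between neighbouring ages, higher calls above 0 and lower calls below it. Dark bars are the 115 members and pale bars all 21475 rows. Calls of members and rows are most frequent up to 3 months, and the third fetal step has the most, mainly lower.

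Birth (3 months against 280 days) changed 19 members upward and 12 downward, beside 28.6% of all rows called, 13.8% higher and 14.8% lower. The median member changed by −0.10 and the median row by −0.14. After quantile normalisation 25 rose and 20 fell, and after centring 21 and 31. No slide held both fetal and postnatal samples, so birth and slides cannot be told apart. The ASB genes had 6 calls at birth, all higher, and 5 of them were of the striated muscle list.

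Besides ASB15, the birth rises in that list were those of ASB12, ASB16, ASB11 and ASB4. ASB16 held 10.38 and 10.03 at 3 months against 8.3 and 8.38 at 280 days (1.87 ± 0.24, adjusted p = 3.87e-05). ASB11 held 12.53 and 12.15 against 10.88 and 10.6 (1.6 ± 0.24, adjusted p = 0.000169). ASB12 held 17.17 and 16.46 against 14.95 and 14.78 (1.95 ± 0.45, adjusted p = 0.00437). The rises of ASB12 and of KLHL33 (1.3 ± 0.28, adjusted p = 0.00305) no longer passed without the Piedmontese column of 3 months (adjusted p = 0.0599 and 0.0537), nor did that of ASB4 (0.97, adjusted p = 0.0119, and 0.109 without it). FBXL4 held 11.21 and 10.55 at 3 months against 9.5 and 9.45 (1.4 ± 0.25, adjusted p = 0.000762). Of the muscle Kelch genes KBTBD13 fell (−0.61, a call lost without any 1 of the 4 columns) and the other 4 besides KLHL33 did not pass, among them KLHL40 at −0.69.

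Of 5 interferon-related TRIM genes measured, 2 were higher at birth and 2 lower, beside 13.8% and 14.8% of all rows. TRIM5, a restriction factor of retroviruses, held 10.06 and 10.16 at 3 months against 8.7 and 8.86 at 280 days (1.34 ± 0.24, adjusted p = 0.000743), and TRIM34 held 5.99 and 6.15 against 4.19 and 5.28 (1.33 ± 0.3, adjusted p = 0.00339). TRIM6 (−1.11) and TRIM56 (−0.96) fell, and both calls were lost without the Wagyu column of 3 months. TRIM34 lost its call without the Piedmontese column of 280 days (adjusted p = 0.0617). Of 5 interferon response markers 3 rose over the same interval, ISG15 by 3.75, MX1 by 3.58 and IFIT3 by 1.6, and 3 of 4 macrophage markers rose as well. Their part in the TRIM changes was not tested.

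The largest fall at birth was that of FBXO17, a glycoprotein-recognising F-box protein, with 7.02 and 6.86 at 3 months against 9.76 and 9.72 at 280 days (−2.8 ± 0.28, adjusted p = 3.98e-06). TRIM46 held 16.43 and 16.22 against 17.45 and 18.11 (−1.46 ± 0.26, adjusted p = 0.000762), and its later columns lay between 15.54 and 16.27. TRIM28 (KAP1), a corepressor that binds zinc finger proteins, held 15.87 and 15.39 against 16.74 and 16.72 (−1.1 ± 0.24, adjusted p = 0.00348). In these genes the columns of the 2 ages did not overlap. The call of TRIM28 was lost without the Wagyu column of 3 months (adjusted p = 0.0643). TRIM68 fell by 1.03, but its other array row correlated with it at only 0.15.

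Over postnatal life (30 against 3 months) 23 members rose and 3 fell, beside 21.9% of rows called, 18.4% higher and 3.49% lower. The median change was 0.31 for the members and for the rows. With the same columns quantile normalised, 18 rose and 14 fell and the median row changed by 0.0. The slides of 25 and 30 months held no sample of 3 to 20 months, so this comparison cannot be told apart from slides either. Without the Wagyu column of 3 months 7 members rose, and without that of 30 months 9.

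None of the muscle Kelch, sarcomere ligase and striated muscle ASB members passed in this comparison by limma. An unadjusted p under 0.05 was found for 0 of the 6 muscle Kelch, 1 of the 5 sarcomere ligase and 2 of the 10 ASB members. The same held for 42 of the 115 members and 8002 of the 21475 rows. KLHL33 stood at 15.17 and 15.75 at 30 months against 15.36 and 14.87 at 3 months (0.35 ± 0.28, adjusted p = 0.394). TRIM63 stood at 17.43 and 17.68 against 18.81 and 17.79 (−0.75 ± 0.51, adjusted p = 0.304). TRIM54 stood at 14.52 and 14.96 against 13.84 and 13.79 (0.93 ± 0.34, adjusted p = 0.0605). In TRIM54 the columns of the 2 ages did not overlap, although the difference did not pass.

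The postnatal rises were led by FBXO17, with 8.55 and 8.66 at 30 months against 7.02 and 6.86 at 3 months (1.67 ± 0.28, adjusted p = 0.000892). Its 25 month columns held 6.82 and 7.21, so the rise came in the last interval (1.59 ± 0.28, adjusted p = 0.00475). TRIM8, which acts in cytokine signalling, held 12.05 and 12.09 against 10.67 and 10.43 (1.52 ± 0.23, adjusted p = 0.000399). FBXL17 held 9.53 and 9.46 against 8.15 and 8.1 (1.37 ± 0.21, adjusted p = 0.000496), and FBXL8 held 12.01 and 12.15 against 10.7 and 10.89 (1.29 ± 0.24, adjusted p = 0.00186). KLHL32 rose by 1.36, TRIM71 by 1.38, TRIM77 by 1.44 and TRIM41 by 1.28. The calls of TRIM77 and TRIM41 were lost without the Wagyu column of 3 months (adjusted p = 0.146 and 0.0542), and that of TRIM77 also without either column of 30 months (0.0778 without the Piedmontese and 0.0521 without the Wagyu one). KLHL32, TRIM71 and TRIM77 were at 4.72 or below in both 30 month columns, near the 4.44 under which the lowest 25% of row means lay. Over the same interval 4 of 5 adipocyte markers rose, with list means of 10.30 and 11.21 at 30 months against 7.05 and 6.50 at 3 months, and their part in these rises was not tested.

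The falls after birth were those of TRIM36 (−1.18 ± 0.34, adjusted p = 0.0229), ASB9 (−0.77 ± 0.24, adjusted p = 0.0313) and KBTBD2, known for controlling a subunit of PI3 kinase (−0.66 ± 0.22, adjusted p = 0.044). KBTBD2 held 14.88, 15.55, 15.28, 14.83, 14.42 and 14.04 in the Piedmontese and 14.46, 15.1, 15.47, 14.42, 14.49 and 13.99 in the Wagyu columns from 3 to 30 months. It was highest at 7 or 12 months. All 3 calls were lost when any 1 of the 4 columns of 3 and 30 months was left out.

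Steps between postnatal ages had few calls. From 3 to 7 months 3 members were called, beside 1.27% of rows: KLHL40, TRIM8 (0.97) and TRIM2 (1.62 ± 0.34, adjusted p = 0.0272). TRIM2, a neuronal TRIM protein, held 10.39 and 10.42 at 7 months against 8.56 and 9.01 at 3 months. From 7 to 12 months 2 were called, FBXL2 (1.08) and FBXW4 (−1.15), beside 1.66% of rows, and from 12 to 20 months KLHL26 alone (−0.92), beside 2.29%. From 20 to 25 months 6 members were called, all higher, beside 8.97% of rows (8.71% higher), and the slides changed at this step. Rows in the lowest 25% had a median change of 0.62 there and the other rows 0.19, and 0 of the 94 members left were called when those rows were left out. From 25 to 30 months 6 were called, all higher, beside 2.81% of rows (2.19% higher), led by FBXO17, KLHL40 and FBXL8 (1.38 ± 0.24, adjusted p = 0.0045).

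Averaged over the 6 postnatal and the 4 fetal ages, 37 members were higher after birth and 52 lower, beside 73.5% of rows called (22.2% higher and 51.3% lower). Quantile normalisation gave 55 and 33, and centring 71 and 25. The ends were KLHL33 at 6.62 ± 0.13 and ASB9 at −3.1 ± 0.11. FBXL4 (2.82 ± 0.12, adjusted p = 5.82e-13) was the highest FBXL gene, FBXO7, which acts in mitophagy, the highest FBXO gene (0.99 ± 0.11, adjusted p = 2.56e-07), and KBTBD2 the highest KBTBD gene (1.4 ± 0.1, adjusted p = 9.79e-10). FBXO7 held 11.71 and 11.52 at 3 months against 10.6 and 11.43 at 280 days, and its step at birth did not pass (0.6 ± 0.24, adjusted p = 0.0699). Counted by the age at which a member was highest, 30 members peaked at 60 days, 21 at 195 days, 15 at 30 months, 14 at 12 months and 0 at 3 months, against 33.4%, 8.42%, 15.9%, 5.99% and 2.08% of all rows at these ages.

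Genes around the ligases had calls in both directions before birth, where 61.0% of all rows were called. Of 27 listed cullin scaffold and adaptor genes 10 were measured. CUL3, CUL5, SKP1 and elongin B (ELOB), named above for these families, were not among them, and CUL1 was the only cullin named above that was. Of 10 cullin scaffold and adaptor genes 2 rose (CUL4A by 1.92 and CUL1 by 0.56) and 2 fell (CUL4B, −3.00, and GLMN, an inhibitor of the RING subunit RBX1, −0.68), which is 40.0% of them. CUL1 did not pass after quantile normalisation (0.23), and GLMN was higher under both other scalings (0.64 and 0.54). Of 6 COP9 signalosome genes, whose product strips NEDD8 from cullins, 3 rose: COPS5 (1.19), GPS1 (1.09) and COPS4 (1.07), which is 50.0%. A list of substrates or clients of muscle ligases had 8 genes measured, not all of them tied to a member described here. Of these 3 rose (NRAP 6.68, DES 4.07 and FLNC 2.43) and 3 fell (SMAD9 −3.76, MYOD1 −3.04 and FLNA −2.61). At birth CUL2 (1.20) and ELOC, which encodes elongin C (0.67), rose.

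Between the crosses, no member passed. Over the 10 ages, Piedmontese minus Wagyu ran from −0.49 (KLHL41) to 0.27 (KLHL24), and limma called 0 members at an adjusted p under 0.05, beside 0.279% of rows. An unadjusted p under 0.05 was found for 8 members, which is 6.96% of them, and for 8.27% of rows, and the smallest adjusted p of a member was 0.268. The 95% interval of the difference lay within ±0.5 for 103 members and within ±1 for 114. The interval that reached furthest was that of KLHL41, from −1.11 to 0.13, and its cross difference averaged −1.24 over the fetal ages and 0.01 over the postnatal ones. This rested on the 135 day age, where it was −3.77. Without that age the fetal mean was −0.40 and the mean over all remaining ages −0.13, and the members ran from −0.44 (KLHL34) to 0.35 (KLHL38), with 0 called.

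KLHL34 had the smallest p, with a mean of 9.38 in the Piedmontese and 9.79 in the Wagyu columns, a difference of −0.42 (95% interval −0.69 to −0.15, adjusted p = 0.268 by limma), and was lower in the Piedmontese column at 9 of 10 ages. FBXL22 (−0.40), FBXL8 (−0.34), TRIM54 (−0.41), TRIM68 (−0.26), KLHL40 (−0.42), TRIM44 (−0.26) and TRIM72 (−0.27) followed in order of p, with adjusted p from 0.29 to 0.528. For KLHL40 the difference averaged −0.64 over the fetal ages, or −0.31 without 135 days, and −0.27 over the postnatal ages. For TRIM54 it averaged −0.70 over the fetal ages, or −0.37 without 135 days, and −0.22 over the postnatal ages. Over all ages but 135 days the differences of KLHL40, TRIM54 and TRIM72 were −0.28, −0.27 and −0.18. The fibre marker means were also lower in the Piedmontese column at 60, 135 and 280 days and at 12, 20 and 25 months. They were higher in it at 195 days and at 3, 7 and 30 months. The part of the fibre markers in these cross differences was not tested.

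Within the slides of 25 and 30 months alone 3 members passed, beside 4.33% of rows called there: ASB5 (−0.69, adjusted p = 0.00324), KBTBD7 (−0.59, adjusted p = 0.0157) and TRIM44 (−0.61, adjusted p = 0.0108). These fits have few residual degrees of freedom, and within the fetal slides and those of 3 to 20 months 0 members passed. The Piedmontese minus Wagyu difference of ASB5 by age ran from −1.77 at 135 days to 1.41 at 280 days, so its sign changed with age. TRIM44, a TRIM-like protein without a RING domain, held 10.41 in the Piedmontese and 11.06 in the Wagyu column at 30 months, and its difference at 7 to 30 months was below 0 at each age.

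Whether the cross difference itself differed after and before birth was tested on the 10 differences by age. For this test limma called 0 members, beside 0.0186% of rows, and the smallest adjusted p of a member was 0.724. An unadjusted p under 0.05 was found for 1172 of the 21475 rows and for 3 of the 115 members (KLHL38, ASB15 and KLHL41). KLHL38 had the smallest p of these 3 members, with a contrast of 0.99 ± 0.34, and none of the 3 had an unadjusted p under 0.05 without the 135 day age. The differences between the crosses spread less at 25 and 30 months, with an SD over members of 0.24 and 0.23, than at 135 and 280 days of gestation, with 0.69 and 0.49. The fits use 1 residual for all ages, so the errors printed for fetal changes may be too small and those for postnatal changes too large. When each stage was fitted alone, 29 members rose and 33 fell before birth, and 36 rose and 6 fell after it.

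**Figure D5:**
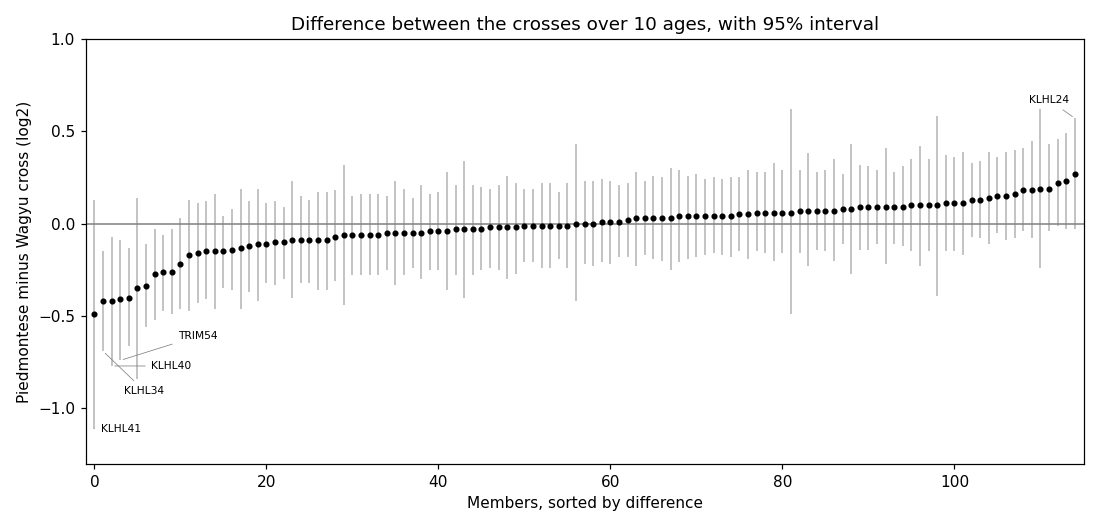
Piedmontese minus Wagyu difference (log2, mean of 10 ages) of each member, sorted, with its 95% interval as a grey line. Points below 0 are lower in the Piedmontese cross. All points lie between −0.49 and 0.27, and no member passed after adjustment over all rows.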

How the data were processed

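The authors deposited logarithmic values, called log2 here, in a table of 20 columns, 1 per cross and age. The values came from 36 two-colour arrays on 9 slides. Each array holds both crosses of an age in opposite dyes, which were unbalanced before birth and balanced after it. Signals came from Agilent Feature Extraction 8.5.1.1, per the submitters' processing notes. The sources used here do not give the normalisation, the base of the logarithm or how animals were combined. The highest values exceed what a scanner can hold, so differences are given in deposited units, not folds. Of 21475 rows, 12276 carried a symbol in the platform annotation. Of the members, 113 were found in a current gene table and 0 were renamed. Limma 3.58.1 in R 4.3.3 was fitted to all rows with age (10 levels) and cross, leaving 9 residual degrees of freedom, with Benjamini-Hochberg adjustment across the table. Cross by stage used the 10 differences. The fit was tested before use on simulated data in which 200 of 21475 rows changed, a smaller share than was called with age. A change of 1 was recovered in 25% of the changed rows before birth, 16.5% at birth and 16.5% after birth. It was recovered in 95.5% for cross and 34% for cross by stage. A change of 2 was recovered in 89.5% to 99%. Postnatal changes near 1 could thus be missed.

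Named members were the 8 largest passing changes in each direction and comparison that shared their sign in both crosses, the 10 largest F for age, up to 2 in each direction and step, the family ends, the genes most like KLHL33 and all members of the role lists. KLHL28, KLHL11, TRIM47 and KLHL24 were named after their values were seen. The members, lists and this rule were chosen with earlier results of these data known. Alternatives were quantile normalisation, centring, leaving out low rows or single columns, averaged rows of a gene and a trended robust prior, and, chosen after seeing the data, leaving out 135 days and fitting each stage alone. Array annotation gave no coordinates, and no sequences are printed.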

Additional observations from a re-analysis of the deposited data

How the results depend on the processing

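Column scaling decided most falls before birth. FBXL5 (0.02), FBXL8 (0.48), KLHL14 (0.42), KLHL22 (0.57), TRIM24 (0.36), TRIM3 (0.38), TRIM33 (0.53), TRIM34 (0.48), TRIM41 (0.28) and TRIM8 (0.14) turned positive after centring, and FBXL8 (0.34), TRIM3 (0.43) and TRIM33 (0.32) after quantile normalisation. Members higher and lower were 79 and 17 (centred) and 58 and 27 (quantile) before birth, 21 and 31 or 25 and 20 at birth, 25 and 10 or 18 and 14 after birth, and 71 and 25 or 55 and 33 for postnatal minus fetal ages. Leaving out the 25% lowest rows gave 14 postnatal rises. Leaving out 1 column gave 29 to 34 members higher and 32 to 44 lower before birth, 9 to 20 and 3 to 15 at birth, 7 to 26 and 0 after birth. At birth 9 rose without the Piedmontese column of 3 months and 12 without that of 280 days, and 3 fell without the Wagyu column of 3 months and 7 without that of 280 days. After birth 7 and 9 rose without the Wagyu columns of 3 and 30 months and 12 without the Piedmontese column of 30 months. Leaving out 1 age gave 33 to 38 higher and 49 to 56 lower for postnatal minus fetal ages, and 0 for cross and for cross by stage; the slides of 25 and 30 months alone gave 3 for cross. Members called by step, where they moved by over 1.5 times, were 45 (centred) for the first fetal step, 40 (centred) and 37 (quantile) for the second, 5 (low rows out), 7 (centred), 8 (quantile) and 5 (trended robust prior) from 3 to 7 months, 4 (centred) and 5 (quantile) from 7 to 12, 2 (low rows out), 3 (centred), 6 (quantile) and 3 (trended robust prior) from 12 to 20, 0 (low rows out) and 1 (centred) from 20 to 25, and 10 (quantile) from 25 to 30. Each stage fitted alone gave 16 and 8 for the first 2 fetal steps, 11, 9, 15, 15 and 15 for the postnatal steps, and 36 rises and 6 falls from 3 to 30 months; that fit uses fewer columns and its own residual. The cause of the other changes was not tested. Averaging the rows of a gene changed no named call among the prenatal, birth and postnatal changes. No replicate number pairs the columns, and the crosses were compared within age, with cross and age both in the fit; without the age term 0 members were called for cross. The table gives no detection limit, so changes of the 21 members in the lowest 25% of rows are the least certain.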
